A study of Homo sapiens with 8 samples.

Results

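A set of 35 genes of the ATF4 and unfolded protein responses was followed across all 8 arrays of the series. The genes were chosen by name and kept in 2 branches, 24 genes of amino acid supply and stress signaling that ATF4 is known to control (the ATF4 branch) and 11 genes of protein folding in the endoplasmic reticulum, or ER (the ER chaperone branch). They are 35 of 22439 genes that could be named on the array. All 35 had a value on all 8 arrays, and 33 of them were well above background in both channels on every array.

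ATF4 is a transcription factor whose mRNA is translated more when the initiation factor eIF2 is phosphorylated, as happens when amino acids run short or unfolded protein builds up in the ER. Its targets make and import amino acids, and include the stress factors DDIT3 (CHOP), ATF3 and TRIB3. The unfolded protein response has other arms besides, in which the sensors ATF6 and IRE1 (ERN1) raise ER chaperones, ATF6 as a transcription factor released from its membrane and IRE1 through splicing of XBP1 mRNA. The arrays measured mRNA levels, so translation of ATF4 and splicing of XBP1 were not observed.

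Each array carried 2 labeled RNAs, that of treated cells in Cy5 and that of control cells of the same line in Cy3, with no dye swap. EBC-1 and SK-MES-1, both lung squamous cell carcinoma (LUSQ) lines, were transfected with miR-150-3p and had 1 array each. SBC-3, a small cell lung cancer line, received 1 of 3 siRNAs against DONSON, a DNA replication factor, on each of 3 arrays (siDONSON-1, siDONSON-2 and siDONSON-3). A549, a lung adenocarcinoma line, had the lysyl oxidase family gene LOXL2 edited with CRISPR/Cas9 on 3 arrays (A549-GE1, A549-GE2 and A549-GE3). The control of the transfected lines is labeled both mock and without transfection, and that of A549 without genome editing. Therefore, what the transfection itself did cannot be told apart from what the named small RNA did. The labels do not say whether the 3 A549 samples are separate clones, nor whether any samples came from separate cultures, so p-values measure the spread between these arrays, which may be technical.

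The promoters of 7 genes are shown because they carry the sequence motifs known for these 2 branches. The ER stress response element (ERSE, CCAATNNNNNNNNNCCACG) and its short form (ERSE-II, ATTGGNCCACG) are bound by ATF6 with NF-Y. The amino acid response element is bound by ATF4 with C/EBP factors and was searched as TTGCATCA. The sequences are from RefSeq (GRCh38.p14), run 5′ to 3′ on the strand of the gene, and end before the transcription start. Capitals mark the fixed letters of the motifs in either orientation, so that the free bases between them stay in lower case.
HSPA5: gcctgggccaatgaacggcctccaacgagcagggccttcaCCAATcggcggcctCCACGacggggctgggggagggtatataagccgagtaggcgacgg
HSP90B1: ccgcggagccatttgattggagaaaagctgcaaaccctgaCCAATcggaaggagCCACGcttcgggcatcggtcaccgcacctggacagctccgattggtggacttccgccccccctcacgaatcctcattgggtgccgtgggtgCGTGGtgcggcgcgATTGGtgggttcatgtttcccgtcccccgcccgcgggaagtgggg
CRELD2: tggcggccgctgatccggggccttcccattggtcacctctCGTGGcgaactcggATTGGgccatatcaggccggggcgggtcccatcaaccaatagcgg
XBP1: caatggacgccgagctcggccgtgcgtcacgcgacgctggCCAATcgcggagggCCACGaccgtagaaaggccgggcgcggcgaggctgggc
HERPUD1: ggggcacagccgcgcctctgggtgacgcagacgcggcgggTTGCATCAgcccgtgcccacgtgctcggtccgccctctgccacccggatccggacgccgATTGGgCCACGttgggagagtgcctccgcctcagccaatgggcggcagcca
SDF2L1: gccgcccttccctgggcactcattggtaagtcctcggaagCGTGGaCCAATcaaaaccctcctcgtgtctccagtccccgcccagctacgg
CHAC1: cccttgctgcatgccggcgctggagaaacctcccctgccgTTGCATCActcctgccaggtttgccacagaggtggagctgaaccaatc

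These stretches lie at chr9:125241351-125241449 (minus strand), chr12:103930176-103930379 (plus), chr22:49918514-49918612 (plus), chr22:28800570-28800661 (minus), chr16:56931926-56932075 (plus), chr22:21642074-21642164 (plus) and chr15:40953222-40953309 (plus), all upstream of their gene. Windows of 250 bases before to 50 after the start, read on both strands, were read for 30 of the 35 genes. All 11 ER chaperone genes and 19 of the 24 ATF4 branch genes were covered, but not ALDH1L2, NUPR1, PSPH, SHMT2 and SLC7A11. Of each gene covered, 1 window was read. The shares over all genes count every window, and a gene may have several there. ERSE was found in 4 of the 11 ER chaperone windows (HSPA5, HSP90B1, CRELD2 and XBP1), in 0 of the 19 ATF4 branch windows and in 0.0769% of 35116 windows of all genes. HSP90B1 held it at 2 places. ERSE-II was found in 2 of the 11 (HERPUD1 and SDF2L1), in 0 of the 19 and in 0.0541% of all windows. TTGCATCA was found in CHAC1, in HERPUD1 and in 0.866% of all windows, and HERPUD1 thus held a motif of each branch. A looser form, TGATGNAA, which each TTGCATCA also matches on the opposite strand, was found in 5 of the 19 ATF4 branch windows (ASNS, ATF3, CHAC1, SLC3A2 and SLC7A1), in 1 of the 11 ER chaperone windows and in 3.62% of all. The 5-base parts of ERSE are common, with CCAAT in 34.6% and CCACG in 38.1% of all windows. Each of the 11 ER chaperone windows held both. A match is a description of the letters and no evidence of binding.

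The targeted genes were lower on the arrays named for them. DONSON had log2 ratios of -2.15, -1.79 and -2.11 on the siDONSON arrays, and LOXL2 of -2.49, -2.67 and -2.59 on the A549 arrays. In the control channels of SBC-3, the small cell markers NEUROD1, CHGA, SYP and DLL3 were well above background and INSM1 was not. Of the adenocarcinoma markers, 3 of 6 were above background in A549 (without NKX2-1 and SFTPB), 3 of 6 in EBC-1, 4 of 6 in SK-MES-1 and 2 of 6 in SBC-3. Of the squamous markers, 3 of 6 were above background in SK-MES-1, 2 in SBC-3 and 1 in A549. Both LUSQ lines thus had more adenocarcinoma than squamous markers above background. In EBC-1, SOX2 was the only 1 of the 6 squamous markers above background, and TP63, KRT5, KRT6A, KRT14 and DSG3 were not. Of the spots, 41.1% to 46.4% were well above background in Cy3 and 48.5% to 56.2% in Cy5. Over all genes, the median log2 ratio lay between 0.02 and 0.05 on the 8 arrays.

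**Figure D1:**
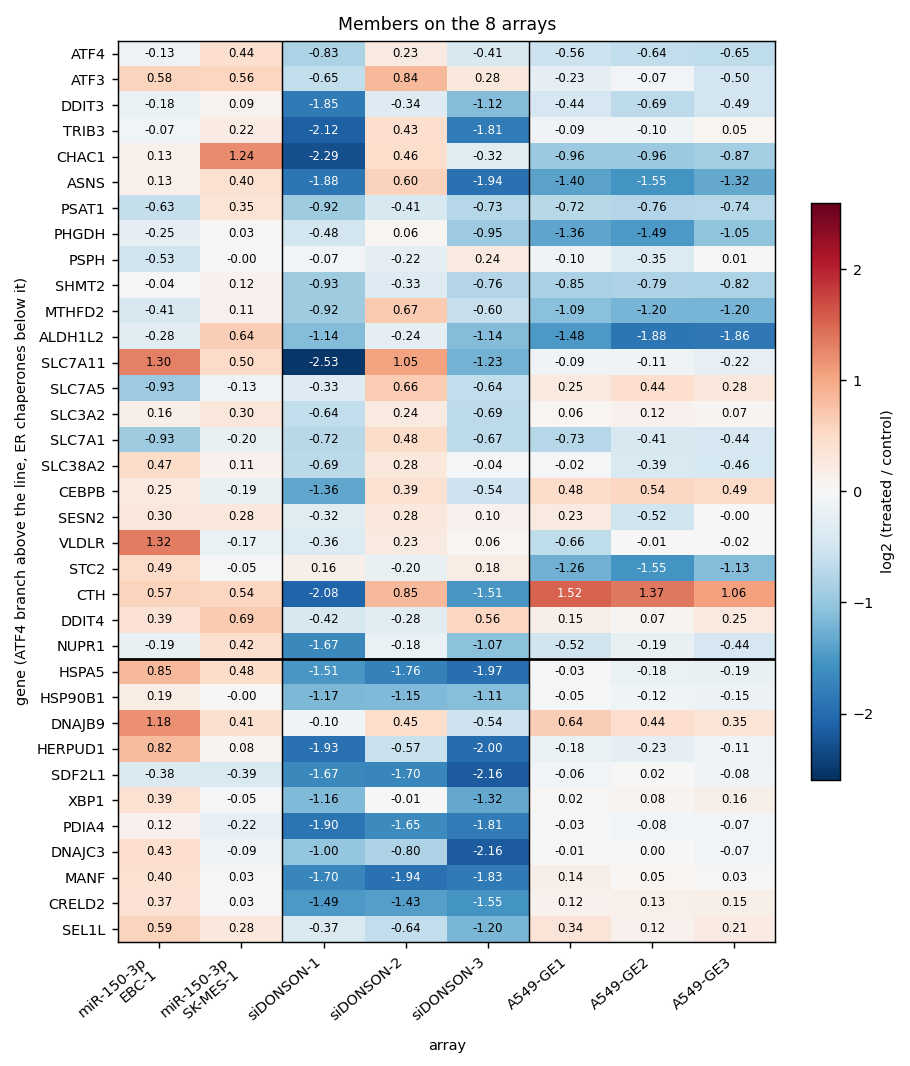
Log2 ratio of treated over control (color and number) of the 35 genes (rows) on the 8 arrays (columns). Most ER chaperones, below the line, are blue on the 3 siDONSON arrays, where HSPA5 lies between -1.97 and -1.51, and near 0 on the A549 arrays, and 16 of the 24 ATF4 branch genes are above 0 on siDONSON-2, against 1 on siDONSON-1.

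Most ER chaperones were lower in SBC-3 cells after each of the 3 DONSON siRNAs. By limma, 9 of the 11 fell and 0 rose, against 3.21% of all 14454 genes tested that were lower and 4.01% that were higher. The median of their mean log2 ratios was -1.49, a 2.82-fold lower level, and that of all genes was 0.03. On every siDONSON array, 6 of the 11 were below a log2 ratio of -1, as were 0.429% of all genes. Moreover, 10 of the 11 were below 0 on every siDONSON array, against 18.6% of all genes.

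HSPA5 (BiP), the main Hsp70 chaperone of the ER and the one that holds the stress sensors inactive, had log2 ratios of -1.51, -1.76 and -1.97. Its mean over the 3 arrays was -1.75 (SE 0.12, limma adjusted p = 0.000929), a 3.35-fold lower level. SDF2L1, a partner of the ER Hsp40 proteins, had -1.67, -1.70 and -2.16 (mean -1.84, SE 0.11, adjusted p = 0.000764). In these 2 genes siDONSON-3 gave the lowest value. MANF, a secreted ER stress protein that binds BiP, had -1.70, -1.94 and -1.83, and its mean of -1.82 (SE 0.10) was close to that of SDF2L1. PDIA4, a protein disulfide isomerase, had -1.90, -1.65 and -1.81, with a mean of -1.79 (SE 0.10). CRELD2, an ER stress protein with disulfide isomerase activity, had -1.49, -1.43 and -1.55 (mean -1.49, SE 0.09). The adjusted p was 0.000764 for each of MANF, PDIA4 and CRELD2. HSP90B1 (GRP94), the ER form of Hsp90, had -1.17, -1.15 and -1.11, the narrowest spread of the 11 genes (mean -1.14, SE 0.08, adjusted p = 0.00134). Both of its probes gave this result. These 6 genes were called lower in each fit that left out 1 siDONSON array. With the spread of the 3 siDONSON arrays alone, 5 of the 35 genes passed (CRELD2, HSPA5, MANF, PDIA4 and SDF2L1). The share of all genes that passed in that fit is not given here.

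For 3 more ER genes the values were more widely spread between the siRNAs. HERPUD1, a membrane protein of ER-associated degradation (ERAD) with ERSE-II and TTGCATCA in its promoter, had -1.93, -0.57 and -2.004 (mean -1.50, SE 0.27, adjusted p = 0.0231). Its value on siDONSON-2 was above the other two. DNAJC3 (p58IPK), a co-chaperone of BiP, had -0.997, -0.80 and -2.16 (mean -1.32, SE 0.24, adjusted p = 0.024). SEL1L, an adaptor of the ERAD ubiquitin ligase, had -0.37, -0.64 and -1.20 (mean -0.73, SE 0.15, adjusted p = 0.0335). Of its 3 probes, 1 disagreed with the others on siDONSON-1, at 0.41 against -0.85 and -0.66. The same probe gave -1.90 on siDONSON-3, against -0.67 and -1.02, and was not counted on siDONSON-2. Part of the spread of SEL1L between the siRNAs thus came from this probe. With normexp and loess, the mean of SEL1L was -0.29 and was still called. Without siDONSON-1, 7 of the 11 ER genes were called lower (HERPUD1 and DNAJC3 were lost), and without siDONSON-3, 6 (SEL1L was lost as well). SEL1L was also lost without any 1 of the A549 arrays, as these share the estimate of the spread.

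XBP1, the transcription factor of the IRE1 arm, had -1.16, -0.01 and -1.32. It was thus lower with siDONSON-1 and siDONSON-3 and near 0 with siDONSON-2, and its mean of -0.83 (SE 0.23) did not pass the test (limma adjusted p = 0.0735). DNAJB9 (ERdj4), a BiP co-chaperone and a target of spliced XBP1, had -0.10, 0.45 and -0.54 and a mean of -0.06 (SE 0.20, adjusted p = 0.871). It was the only ER gene of the 11 above 0 on a siDONSON array.

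**Figure D2:**
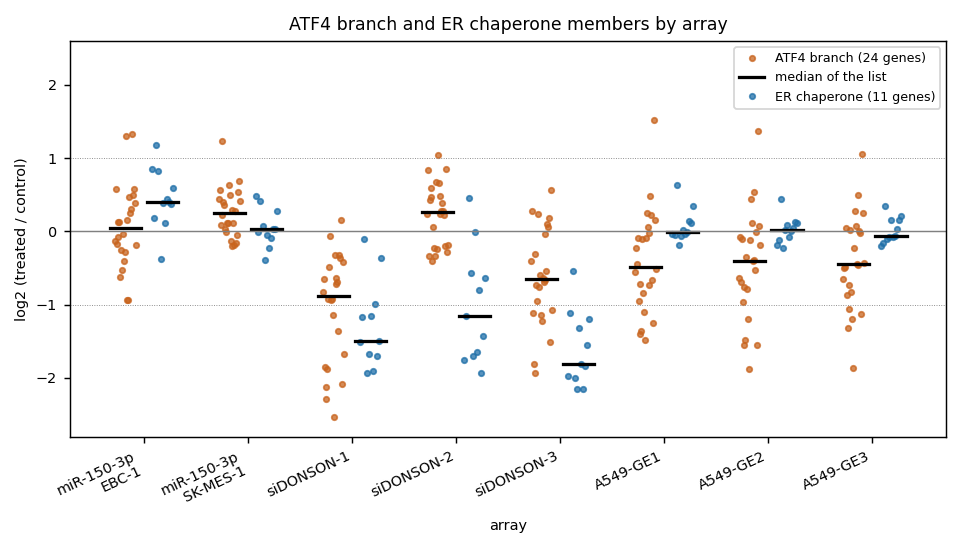
Log2 ratio of treated over control (vertical axis) of the ATF4 branch (orange, 24 genes) and the ER chaperones (blue, 11 genes) on each array, 1 point per gene, with the median of each list as a bar. The ER chaperone median is between -1.81 and -1.15 on the siDONSON arrays and between -0.07 and 0.02 on the A549 arrays, and the ATF4 branch median is above 0 on siDONSON-2 and below 0 on the other 5 arrays of these lines.

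In the ATF4 branch, the 3 siRNAs did not give the same direction. The median of the 24 genes was -0.88 on siDONSON-1, 0.26 on siDONSON-2 and -0.65 on siDONSON-3. By limma, 2 of the 24 fell (DDIT3 and SHMT2), against 3.21% of all genes that were lower, and 0 rose. Both calls were lost after subtracting the other treatments (adjusted p = 0.159 and 0.437). The median of the means was -0.41, but -0.09 without siDONSON-1, -0.74 without siDONSON-2 and -0.15 after the subtraction. There were 0 genes below -1 on all 3 arrays and 5 of the 24 below 0 on all 3, against 18.6% of all genes below 0, a share close to that of the 24. The siDONSON-2 value was the highest of the 3 in 21 of the 24 genes (87.5%) and in 6 of the 11 ER chaperones (54.5%), against 37.7% of all genes. In 13 of the 24 (54.2%), siDONSON-1 and siDONSON-3 were below 0 and siDONSON-2 above 0, against 12.1% of all genes and 1 of the 11 ER chaperones. This pattern was noticed after the values were seen and was not tested. When siDONSON-2 was left out, 12 of the 24 ATF4 branch genes and 9 of the 11 ER chaperones were called lower, the latter with XBP1 in place of SEL1L. Without siDONSON-1, siDONSON-3, A549-GE2 or A549-GE3, 0 of the 24 were, and without A549-GE1 only SHMT2 was. Without either miR-150-3p array, 4 of the 24 were called lower (ALDH1L2, DDIT3, PSAT1 and SHMT2). The share of all genes called in these fits is not given here.

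**Figure D3:**
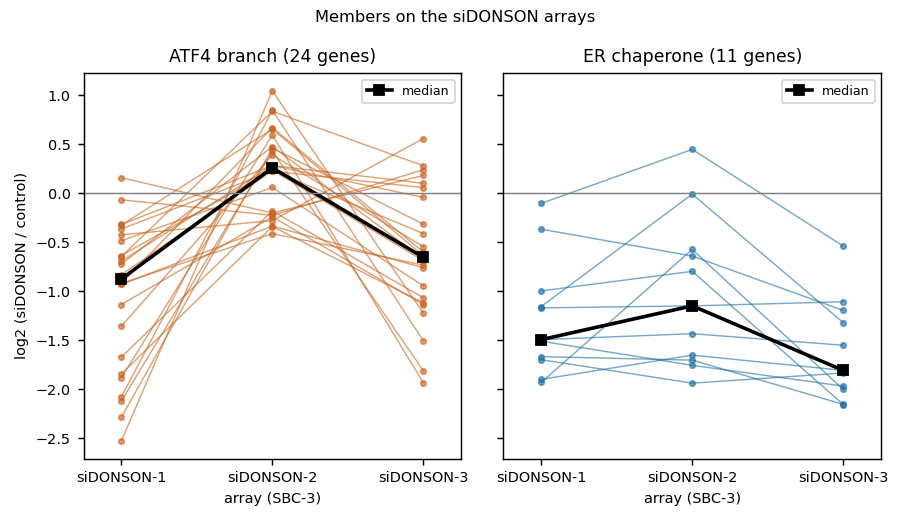
Log2 ratio of siDONSON over control (vertical axis) on the 3 SBC-3 arrays (horizontal axis), 1 line per gene, for the ATF4 branch (left) and the ER chaperones (right), with the list median in black. The ATF4 branch median goes from -0.88 to 0.26 and -0.65, and the ER chaperone median is -1.49, -1.15 and -1.81.

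Among the stress factors, ATF4 itself had -0.83, 0.23 and -0.41 (mean -0.34, SE 0.19, limma adjusted p = 0.311). DDIT3, the proapoptotic factor CHOP, had -1.85, -0.34 and -1.12 (mean -1.10, SE 0.24, adjusted p = 0.0359). Its direction was the same on the 3 arrays, which ATF4's was not. TRIB3, a pseudokinase induced by ATF4 and CHOP, had -2.12, 0.43 and -1.81 (adjusted p = 0.128). CHAC1, a glutathione-degrading enzyme, had -2.29, 0.46 and -0.32 (adjusted p = 0.356). CEBPB, a partner factor of ATF4, had -1.36, 0.39 and -0.54 (adjusted p = 0.286). These 3 genes were above 0 on siDONSON-2 alone, and siDONSON-1 was the lowest of the 3 arrays for each. NUPR1, a small stress-induced chromatin protein, was below 0 on all 3 arrays, at -1.67, -0.18 and -1.07, but did not pass the test (adjusted p = 0.0601).

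The widest spread was that of 3 genes of amino acid supply. SLC7A11 (xCT), the cystine importer, had -2.53, 1.05 and -1.23, with an SD of 1.81 between the arrays. CTH, cystathionine gamma-lyase, which makes cysteine, had -2.08, 0.85 and -1.51 (SD 1.55), and ASNS, asparagine synthetase, had -1.88, 0.60 and -1.94 (SD 1.45). In all 3 genes, siDONSON-1 and siDONSON-3 were below -1 and siDONSON-2 was above 0. The serine and folate genes had smaller log2 ratios. SHMT2, the mitochondrial serine hydroxymethyltransferase, had -0.93, -0.33 and -0.76 and fell by 0.68 (SE 0.12, adjusted p = 0.0221). PSAT1, of serine synthesis, had -0.92, -0.41 and -0.73 (adjusted p = 0.0596), and ALDH1L2, of mitochondrial folate metabolism, had -1.14, -0.24 and -1.14 (adjusted p = 0.0651). All 3 were below 0 on every siDONSON array. PHGDH, the first enzyme of serine synthesis, had -0.48, 0.06 and -0.95, and MTHFD2, the mitochondrial folate dehydrogenase, had -0.92, 0.67 and -0.60. Neither passed the test (adjusted p = 0.162 and 0.545). STC2, a secreted glycoprotein, had 0.16, -0.20 and 0.18, and VLDLR, a lipoprotein receptor, had -0.36, 0.23 and 0.06. The other 8 genes (ATF3, PSPH, SLC7A5, SLC3A2, SLC7A1, SLC38A2, SESN2 and DDIT4) lay between -0.72 and 0.84 on the siDONSON arrays, and none of their means passed the test. The 4 probes of ATF3 disagreed on siDONSON-1, where 1 gave 0.93 and the others -1.34 to -1.04.

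In A549 cells with LOXL2 edited, several genes of serine and folate metabolism were lower and 0 of the 11 ER chaperones were called. By limma, 6 of the 24 ATF4 branch genes fell and 0 rose, against 6.77% of all 15531 genes tested that were lower and 7.58% that were higher. The median of the 24 means was -0.34, and that of all genes 0.02. On every A549 array, 5 of the 24 (ASNS, PHGDH, MTHFD2, ALDH1L2 and STC2) were below -1, as were 1.2% of all genes. Below 0 on every A549 array were 16 of the 24, against 33.4% of all genes. The 3 A549 arrays were close to each other, with list medians of -0.48, -0.40 and -0.45.

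ALDH1L2 had log2 ratios of -1.48, -1.88 and -1.86, with a mean of -1.74 (SE 0.23, limma adjusted p = 0.00419), a 3.34-fold lower level. PHGDH had -1.36, -1.49 and -1.05 (mean -1.30, SE 0.18, adjusted p = 0.00582). STC2 had -1.26, -1.55 and -1.13 (mean -1.31, SE 0.14, adjusted p = 0.00238). These 3 genes passed the test in every alternative tried, but the size did not hold. With normexp and loess, the mean was -0.52 for ALDH1L2 and -0.31 for STC2, against -1.07 for PHGDH. MTHFD2 had -1.09, -1.20 and -1.20 (mean -1.17, SE 0.27, adjusted p = 0.0287), SHMT2 had -0.85, -0.79 and -0.82 (mean -0.82, SE 0.12, adjusted p = 0.00638), and PSAT1 had -0.72, -0.76 and -0.74 (mean -0.74, SE 0.18, adjusted p = 0.0327). Of the 6 genes, 5 are enzymes of serine synthesis or mitochondrial folate metabolism. PSPH, the last enzyme of serine synthesis, was not among them, with -0.10, -0.35 and 0.01. When A549-GE2 was left out, 3 of the 6 remained called (ALDH1L2, PHGDH and STC2), and without A549-GE1 or A549-GE3 these 3 and SHMT2. PSAT1 was also lost without siDONSON-3. After subtracting the other treatments, ALDH1L2, PHGDH and STC2 were called, and MTHFD2, SHMT2 and PSAT1 were lost (adjusted p = 0.139, 0.127 and 0.5).

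The test used a spread shared by all 8 arrays, and for genes that varied among the siDONSON arrays that spread was wide. ASNS had -1.40, -1.55 and -1.32 in A549, a 2.68-fold lower mean level that did not pass (adjusted p = 0.0664). CTH went the other way, at 1.52, 1.37 and 1.06, a mean of 1.32 (SE 0.47, adjusted p = 0.1). ATF4 had -0.56, -0.64 and -0.65 (adjusted p = 0.0729), CHAC1 had -0.96, -0.96 and -0.87 (adjusted p = 0.208), and DDIT3 had -0.44, -0.69 and -0.49 (adjusted p = 0.172). With the spread of the 3 A549 arrays alone, 16 of the 35 genes passed, and the share of all genes is not given here. The 12 that were lower were the 6 above with ASNS, ATF4, CHAC1, DDIT3, NUPR1 and SLC7A1, and the 4 that were higher were CTH, CEBPB, SLC7A5 and DNAJB9. SLC7A11 had -0.09, -0.11 and -0.22, TRIB3 had -0.09, -0.10 and 0.05, CEBPB had 0.48, 0.54 and 0.49, NUPR1 had -0.52, -0.19 and -0.44, and VLDLR had -0.66, -0.01 and -0.02. Of these 5, CEBPB was the only gene above 0 on all 3 arrays. VLDLR had 1 probe counted on A549-GE1 and a second on A549-GE2 and A549-GE3. The probe counted on all 3 arrays gave -0.66, -0.34 and -0.59, and the second gave 0.33 and 0.55. ATF3, PSPH, SLC7A5, SLC3A2, SLC7A1, SLC38A2, SESN2 and DDIT4 lay between -0.73 and 0.44. The ATF3 probe that was above 0 on siDONSON-1 gave 0.66, 0.07 and 0.37 on the A549 arrays. The other ATF3 probes counted on A549-GE1 and A549-GE3 were below 0.

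The ER chaperones lay near 0 in A549, DNAJB9 aside. By limma, 0 of the 11 were called, with 1 at an unadjusted p under 0.05 (DNAJB9), as were 31.02% of all genes. After subtracting the other treatments, siDONSON among them, 6 were called higher (CRELD2, HSP90B1, HSPA5, MANF, PDIA4 and SDF2L1). For this subtraction, the share of all genes called is not given here. The median of the 11 means was -0.02, and 4 of the 11 were below 0 and 5 above 0 on all 3 arrays. HSPA5 had -0.03, -0.18 and -0.19 (mean -0.14, 95% interval -0.41 to 0.14), and HSP90B1 had -0.05, -0.12 and -0.15 (95% interval -0.30 to 0.08). DNAJB9 had 0.64, 0.44 and 0.35 (mean 0.48, SE 0.20, adjusted p = 0.157). Of the 11, it had the highest value on each A549 array. XBP1 had 0.02, 0.08 and 0.16 (95% interval -0.46 to 0.63). The other 7 (HERPUD1, SDF2L1, PDIA4, DNAJC3, MANF, CRELD2 and SEL1L) lay between -0.23 and 0.34. Of these, SEL1L was called higher with normexp and loess and also with the brightest probe.

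The difference between the 2 treatments was tested in the same fit, although line and treatment differ together and cannot be told apart. The means of 7 ER chaperones were lower with siDONSON in SBC-3 than with LOXL2 editing in A549, against 7.29% of all genes that differed in either direction. The largest difference was that of MANF, at -1.90 (SE 0.14, limma adjusted p = 0.00134), followed by SDF2L1 at -1.80 (SE 0.15) and PDIA4 at -1.73 (SE 0.14). CRELD2, HSPA5, HSP90B1 and SEL1L also differed. SEL1L, at -0.96, had the smallest of these 7 differences (adjusted p = 0.0389). In the ATF4 branch, STC2 was the only gene called, at 1.36 (SE 0.20, adjusted p = 0.0105), as its log2 ratio was lower in A549. Its difference was 0.34 with normexp and loess. SHMT2 was called lower in both lines, and its difference was 0.15 (95% interval -0.24 to 0.53). CTH did not pass, at -2.23, with a 95% interval of -3.73 to -0.73 and an adjusted p of 0.0776. When siDONSON-2 was left out, 15 genes differed rather than 8, and the share of all genes in that fit is not given here. The log2 ratios of CTH, TRIB3, SLC7A11, SLC3A2 and CEBPB were then among those lower with siDONSON than with LOXL2 editing. STC2 was no longer called without A549-GE2, nor SEL1L without siDONSON-2, siDONSON-3 or any 1 of the A549 arrays.

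**Figure D4:**
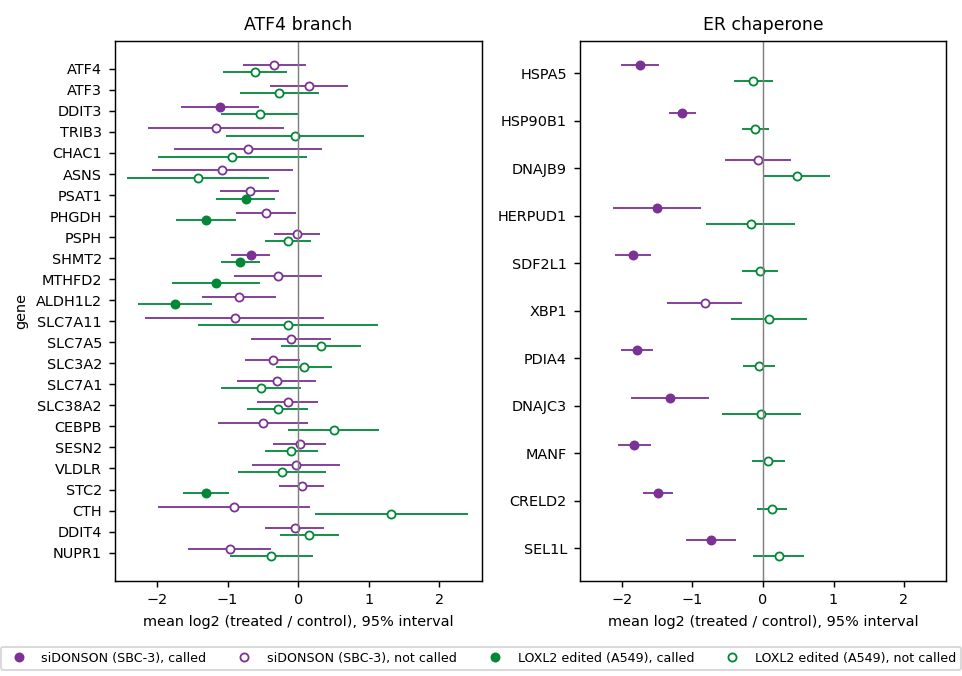
Mean log2 ratio of treated over control (horizontal axis) with 95% intervals from the shared limma fit, for siDONSON in SBC-3 (purple, 3 arrays) and LOXL2 editing in A549 (green, 3 arrays). Filled points passed an adjusted p of 0.05. In the right panel, 9 ER chaperones are filled in purple and none in green, and in the left panel 2 ATF4 branch genes are filled in purple and 6 in green.

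With miR-150-3p, for which each line had 1 array, few of the 35 genes were past a log2 ratio of 1. In EBC-1, 3 genes were above a log2 ratio of 1 and 0 were below -1, against 5.96% and 6.04% of all genes. They were VLDLR at 1.32, SLC7A11 at 1.30 and DNAJB9 at 1.18. In SK-MES-1, CHAC1 at 1.24 was above 1 and 0 were below -1, against 2.57% and 1.27% of all genes. Its 2 probes gave 1.63 and 0.85. With normexp and loess, CHAC1 was at 0.37 in SK-MES-1 and VLDLR at 0.72 in EBC-1. None of the 4 genes was past 1 in both lines, as the same genes had -0.17, 0.50 and 0.41 in SK-MES-1 and 0.13 in EBC-1. For VLDLR, 1 probe was counted in EBC-1. It gave -0.41 in SK-MES-1, where a second probe gave 0.08. For CHAC1, only the probe at 0.85 in SK-MES-1 was counted in EBC-1. The largest falls were those of SLC7A5 and SLC7A1, the leucine and arginine transporters, both at -0.93 in EBC-1, against -0.13 and -0.20 in SK-MES-1.

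In EBC-1, the median was 0.40 for the ER chaperones and 0.04 for the ATF4 branch, and 10 of the 11 ER chaperones were above 0, as were 54.11% of all genes. In SK-MES-1, the medians were 0.03 and 0.25, with 6 of the 11 ER chaperones and 18 of the 24 ATF4 branch genes above 0, against 52.52% of all genes. The branch with the higher median thus differed between the 2 lines, and this difference was not tested. HSPA5 had 0.85 and 0.48 in them, both beyond the 95% limits of the software's error. By limma over both lines, its mean was 0.67 (SE 0.14, adjusted p = 0.0433), and it was the only gene of the 35 called, against 5.38% of all 14230 genes tested. The call was lost without the EBC-1 array and also without siDONSON-3 or any 1 of the A549 arrays, which share the estimate of the spread, leaving 0 genes called. The HSPA5 promoter shown above holds ERSE, as does that of HSP90B1, which had 0.19 and -0.0033 in these lines.

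Of the remaining ER genes, HERPUD1 had 0.82 and 0.08, XBP1 0.39 and -0.05, SEL1L 0.59 and 0.28 and DNAJC3 0.43 and -0.09 in EBC-1 and SK-MES-1. MANF had 0.40 and 0.03, CRELD2 0.37 and 0.03, PDIA4 0.12 and -0.22 and SDF2L1 -0.38 and -0.39. SDF2L1 was the only ER gene below 0 in both lines. In the ATF4 branch, ATF4 had -0.13 and 0.44, DDIT3 -0.18 and 0.09, TRIB3 -0.07 and 0.22 and ASNS 0.13 and 0.40. CTH had 0.57 and 0.54 and DDIT4, an inhibitor of mTORC1 signaling, 0.39 and 0.69. These 2 genes, SLC7A11 and ATF3, the last at 0.58 and 0.56, were above 0 in both lines by more than the 95% limits of the software's error. The limits differ between genes, with an error of 0.07 for DDIT4 and 0.21 for CTH on both arrays. The share of all genes beyond these limits was not counted. The serine and folate genes were mostly below 0 in EBC-1 only, with PSAT1 at -0.63 and 0.35, MTHFD2 at -0.41 and 0.11, PHGDH at -0.25 and 0.03 and SHMT2 at -0.04 and 0.12. STC2 had 0.49 and -0.05, CEBPB 0.25 and -0.19 and NUPR1 -0.19 and 0.42, so that each had opposite signs in the 2 lines. PSPH, SLC3A2, SLC38A2 and SESN2 lay between -0.53 and 0.47. For NUPR1 in EBC-1 and ALDH1L2 in both lines, the control channel was not well above background. Neither had a ratio beyond the 95% limits of the software's error there.

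The control channels show at which level each gene stood without treatment. On a log2 intensity scale made comparable across arrays, the control level of 8 of the 11 ER chaperones was highest in SBC-3 of the 4 lines, as it was for 29.2% of 12864 genes counted on all arrays. The difference in control level, SBC-3 minus A549, was taken for each gene. Its median was 1.26 over the 11 genes, against -0.02 over all genes. HSPA5 had 13.14 in SBC-3, 10.88 in EBC-1, 10.59 in SK-MES-1 and 10.48 in A549. The 3 SBC-3 arrays were within 0.014 of each other for HSPA5, a spread between control channels that may be of the same extract, and EBC-1 and SK-MES-1 had 1 control each, so the difference between lines was not tested. In the ATF4 branch, 11 of the 24 were highest in SBC-3. DDIT3 had 11.95 in SBC-3 and at most 8.87 elsewhere, and CTH had 12.53 in SBC-3 and 8.51 in A549. SLC7A11 had the opposite order, with 8.84 in SBC-3 and 13.09 in A549. Over the 35 genes, the median range between arrays of the same group was 0.10 for the control and 0.97 for the treated channel with siDONSON, and 0.07 and 0.13 with LOXL2 editing. Should the controls of 1 group be the same extract, the spread of the control is not part of the test.

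Related genes outside the 35 were read from lists chosen by function. Of 24 further genes of ER folding and ERAD, 12 were called lower with siDONSON and 0 higher, where 3.21% of all genes were lower and 4.01% higher. DNAJB11, a BiP co-chaperone, had a mean of -1.42 (SE 0.08, limma adjusted p = 0.000764), SEC24D, of ER export, -1.28 (SE 0.26), and CALR, the lectin chaperone calreticulin, -1.12 (SE 0.09). In A549, 2 of these 24 were lower (DERL1 and ERP29) and 1 higher (EDEM2, at 0.77), where 6.77% of all genes were lower and 7.58% higher. The same shares of all genes stand beside the lists that follow. Of the cytosolic heat shock genes, 1 of 13 was called lower with siDONSON (HSPA1B, mean -1.01) and 0 of 14 in A549, where 2 had an unadjusted p under 0.05, against 31.02% of all genes. Of 19 tRNA synthetases, many of them known ATF4 targets, 4 were lower with siDONSON and 3 in A549, and none was higher. EPRS1 was among them in both lines, at -0.48 (SE 0.10) with siDONSON and -0.67 (SE 0.10) with LOXL2 editing. GARS1 had a mean of -0.85 in A549. TTGCATCA was found in 6 of 16 promoter windows of tRNA synthetases.

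Of the sensors and eIF2 regulators, 0 of 17 were called with siDONSON, where 4 (23.53%) had an unadjusted p under 0.05, against 26.10% of all genes. In A549, 3 of the 17 were lower and 1 higher, among them 2 eIF2 kinases in opposite directions, EIF2AK2 (PKR) at -0.62 (SE 0.17, limma adjusted p = 0.0441) and EIF2AK1 (HRI) at 0.37 (SE 0.09, adjusted p = 0.0388). Of the other amino acid and ATF4 genes, 2 of 22 were lower with siDONSON (MTHFD1L and XPOT), and 3 of 23 were lower and 1 higher in A549. PYCR1, of proline synthesis, had -0.93 (SE 0.17, adjusted p = 0.0141) in A549. With miR-150-3p, 1 of 21 of these genes was lower (MTHFD1L, mean -0.80) and 2 were higher (KLHL24 at 1.09 and SESN1 at 0.98), against 5.38% of all genes in either direction. In the other 4 lists, 0 genes were called with miR-150-3p, with 3 or 4 in each at an unadjusted p under 0.05, against 29.98% of all genes.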

How the data were processed

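The authors deposited scanner output of Agilent Feature Extraction for each of 8 arrays, with the intensity of both channels and the log10 ratio of red over green. Per the file headers, the processed intensity had undergone background subtraction, spatial detrending and dye normalization. A deposited series table of the same log10 ratio values served as an alternative.

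The log2 of processed red over green was taken for each spot. Control and outlier spots were left out, a probe was counted when well above background in at least 1 channel, and the probes counted for a gene were averaged. Genes were named through RefSeq accessions (24782 of 50096 matched). limma (3.58.1, R 4.3.3) fitted 3 groups to 8 arrays with 5 residual degrees of freedom, adjusting p by Benjamini-Hochberg over all genes tested in a group at a threshold of 0.05, and was tested on simulated data. For comparing levels, both channels were put through Aquantile. For single arrays, a log2 ratio past 1 was counted without a test. The number of arrays limits the precision. Gene-specific dye bias was not removed.

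The genes, lists and tests were chosen with earlier results of these data known. Genes called in any group, those past 1 with both channels above background, and ATF4, DDIT3, XBP1 and HSPA5 were given on every array, the others by range, and of related lists up to 3 called genes per group. Alternatives were normexp (offset 50, on median signals) with loess, median centring, 2 other filters, the brightest probe, subtraction of the other treatments, own cell lines, own spread, and leaving out each array. The columns of p-values by the scanner software were not used. The mature miR-150-3p sequence is not given here. Some genes of these lists are not reported here.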

Additional observations from a re-analysis of the deposited data

Results flagged for a closer look

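CEBPB, a C/EBP factor that pairs with ATF4, moved in opposite directions in the 2 LUSQ lines after miR-150-3p. Its log2 ratio was 0.2532 with EBC-1 cells but -0.1931 with SK-MES-1 cells, and each was beyond the 95% limits of the software's error on its array. These limits were narrow, with an error of 0.065 on each array, against a median of 0.206 over the 35 genes. PSAT1, at -0.63 and 0.35, lay further apart. The share of all genes with such a pattern was not counted. With 1 array per line, the difference between the lines was not tested.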

How the results depend on the processing

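No called value changed direction under any alternative run. With the spread of each group's own arrays, 5 genes were called with siDONSON, 16 with LOXL2 editing and 0 with miR-150-3p. For this alternative and those that follow, the share of all genes called is not given here. Leaving out 1 array of the groups compared gave 6 (without siDONSON-3) to 21 (without siDONSON-2) genes with siDONSON, 3 (without A549-GE2) to 4 with LOXL2 editing, 0 (without EBC-1) to 3 (without SK-MES-1) with miR-150-3p, and 6 to 15 for the difference between siDONSON and LOXL2 editing. The miR-150-3p count of 1 became 2 with normexp and loess, 0 without a filter on dim probes, 5 after subtracting the other treatments and 2 with the lines as groups of their own. The subtraction moved the ATF4 branch and ER chaperone medians to 0.51 and 1.04 in EBC-1, to 0.73 and 0.62 in SK-MES-1 and to -0.25 and 0.64 with LOXL2 editing. The LOXL2 ATF4 branch median of -0.34 was -0.25 with normexp and loess, -0.45 with both channels above background, -0.38 without the filter, -0.53 with the brightest probe and -0.42 to -0.34 with an array left out, and the ER chaperone median was 0.0415 with normexp and loess. In EBC-1, the genes past the fold numbered 1 with normexp and loess, 12 after the subtraction and 9 at a log2 ratio of 0.58. In SK-MES-1 they numbered 0 with normexp and loess, 0 with both channels above background, 0 with the brightest probe, 7 after the subtraction and 3 at 0.58. The causes were not tested. Of the other 99 values, counts moved by at most 1.5 times, and medians by no more than the spread between arrays or, for the single arrays, than the median software error of 0.206. With the replicate number as a block, 7 genes differed between siDONSON and LOXL2 editing rather than 8. SEL1L was no longer among them (adjusted p = 0.0624). Samples of the same number did not deviate together (correlations of -0.02, -0.01 and -0.01), and the block changed no other call. The control channel was too dim for ALDH1L2 in both LUSQ lines and for NUPR1 in EBC-1, which limits their ratios.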
